A study of Mus musculus with 5 samples.

Results

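Apolipoproteins are the proteins that coat lipoprotein particles, and 10 of their genes were examined in the liver of mouse embryos: Apoa1, Apoa2, Apoa4, Apoa5, Apob, Apoc1, Apoc2, Apoc3, Apoe and Apom. The genes were chosen by symbol, and all 10 were among the 23022 genes of the authors' deposited table. RNA of 5 livers at the E18.5 stage, shortly before birth, had been sequenced after poly(A) selection. The 4N group held 3 livers from embryos with a knockout of the homeobox gene Hhex, without which no liver forms, that had been injected as blastocysts with tetraploid embryonic stem cells carrying the td-Tomato marker. The WT group held 2 livers from normal embryos of that age. Ploidy, cell origin, host genotype at Hhex and embryo manipulation thus all separate the groups, and these cannot be told apart. The labels do not say how many stem cell lines were used, nor what share of each liver came from the host, nor whether livers of a group came from separate litters, so the p-values measure only the spread between these samples.

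Lipoproteins carry triglyceride and cholesterol through the plasma. A single APOB molecule holds together each particle that the liver secretes for triglyceride export, APOA1 and APOA2 form the frame of high density lipoprotein, and APOE is the ligand by which remnants are taken up by receptors. The smaller APOC proteins and APOA5 tune the lipase that empties triglyceride from the particles, with APOC2 activating it and APOC3 restraining it. Fetal liver and visceral yolk sac both make apolipoproteins before birth, and the small intestine becomes a second main source of APOB and APOA4.

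The genes lie in 2 clusters and at 3 single sites. In GENCODE M21, Apoa1, Apoc3, Apoa4 and Apoa5 follow each other in that order on chromosome 9, with Apoc3 on the opposite strand, and Apoc2, Apoc1 and Apoe lie on chromosome 7 with Apoc4 between Apoc2 and Apoc1. Apoa2 is on chromosome 1, Apob on chromosome 12 and Apom on chromosome 17. RefSeq promoter sequences, from build GRCm38.p6, were matched for 8 of the 10 genes, not for Apoc1 and Apoc3. The sequence before the gene start is shown for the matched chromosome 9 genes, which differed most in how far they fell, and for the genes of the structural proteins APOA2 and APOB. All 5 are on the plus strand, at chr9:46228380-46228579 for Apoa1, chr9:46240594-46240695 for Apoa4, chr9:46268358-46268607 for Apoa5, chr1:171224804-171225053 for Apoa2 and chr12:7977427-7977647 for Apob. Each ends before the start given by either RefSeq or GENCODE, and capitals mark matches to TATAAA, the TATA box, or to TGTTTAC, a FOXA motif.
Apoa1: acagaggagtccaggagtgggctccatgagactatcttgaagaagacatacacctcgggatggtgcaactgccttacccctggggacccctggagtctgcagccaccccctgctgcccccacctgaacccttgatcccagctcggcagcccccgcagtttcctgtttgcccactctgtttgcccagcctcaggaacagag
Apoa4: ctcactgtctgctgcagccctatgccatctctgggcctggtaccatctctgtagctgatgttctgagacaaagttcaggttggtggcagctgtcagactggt
Apoa5: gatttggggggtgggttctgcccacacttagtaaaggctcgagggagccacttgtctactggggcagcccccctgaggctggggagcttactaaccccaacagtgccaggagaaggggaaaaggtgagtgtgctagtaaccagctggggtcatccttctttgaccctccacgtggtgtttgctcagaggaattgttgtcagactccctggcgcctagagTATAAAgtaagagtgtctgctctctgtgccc
Apoa2: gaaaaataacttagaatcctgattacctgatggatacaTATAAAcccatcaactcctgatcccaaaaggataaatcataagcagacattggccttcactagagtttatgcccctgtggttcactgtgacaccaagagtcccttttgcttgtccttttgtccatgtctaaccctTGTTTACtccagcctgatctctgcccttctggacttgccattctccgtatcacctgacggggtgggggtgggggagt
Apob: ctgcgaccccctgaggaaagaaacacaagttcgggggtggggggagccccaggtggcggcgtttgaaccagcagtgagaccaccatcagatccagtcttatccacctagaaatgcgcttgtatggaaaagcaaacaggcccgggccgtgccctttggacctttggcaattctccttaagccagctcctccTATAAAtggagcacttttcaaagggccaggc

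The windows searched ran from 250 bases before to 50 after each RefSeq start, on both strands, and 12 windows belonged to the 8 genes. TATAAA stood in 5 of these 12 windows, in Apoa2, Apoa5, Apob and Apoe, against 13.6% of the 32851 windows in the whole table. In the sequences printed above it begins 31 bases before the end in Apoa5 and Apob and 212 bases before the end in Apoa2. The matches in Apoe lay in windows of alternative starts inside the gene. TGTTTAC stood in 2 windows, of Apoa2 and Apoe, against 3.65% of all windows. The 2 windows of Apoa5 overlap, as do 2 of the 3 of Apoe. Only exact matches to each motif were counted, so sites with a variant sequence would be missed. CAAAGTCCA, an HNF4 motif, was in none of the 12 windows and in 0.475% of all. Matches of the other motifs searched were also absent from the 12 windows: TTGCNNCAA (C/EBP, 2.08% of all windows), TGACGTCA (the cyclic AMP response element, 1.79%), direct repeats of AGGTCA with 1 or 4 bases between them, as bound by nuclear receptors (0.0396% and 0.0152%), and the HNF1 palindrome (0.00913%).

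The authors' deposited table gives no values of single libraries, and such values were not analysed here. Its mean over all 5 libraries and its fold change together imply a mean normalized count for each group, and these implied means stand in for the values of the samples below. The depth of single libraries is unknown, and the deposited means sum to 78112300 normalized counts over all genes. Fold changes are 4N against WT, a direction settled from genes at the fitting floor in either group: the smallest standard error among the 247 such genes with a negative value was 1.23, below the limit of 1.44 that an empty group of 2 libraries would set, so the empty group held 3. As a check of the liver label, albumin (Alb), the main hepatocyte product, stood at an implied 6210270 normalized counts in 4N and 6185300 in WT. Hhex did not pass the test (log2 fold change 0.55, SE 0.33, adjusted p = 0.29, per the authors' deposited table), but did at 1.11 (adjusted p = 0.0037) when all values were recentred on other secreted proteins, as did Alb (from 0.01 to 0.56, adjusted p = 0.035). That recentring raised every gene by 0.55, and 28.1% of all genes were then called higher. The alpha-fetoprotein gene Afp, which marks fetal hepatocytes, rose (1.03, SE 0.26, adjusted p = 9.6e-04, per the authors' deposited table).

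Of the 10 apolipoprotein genes, 9 fell in 4N (Wald test of the authors, adjusted p under 0.05 over all genes), 0 rose and 1, Apom, did not pass. Across all genes 7.41% were called lower and 7.94% higher, and of the 8656 genes that averaged 1000 normalized counts or more 10.3% were called lower. The median log2 fold change of the 10 genes was -1.31, beside 0.00 over all genes. Together the implied means of the 10 genes summed to 1170740 normalized counts in 4N and 2410650 in WT, or 1.51% and 3.06% of all implied counts. In these bulk samples fewer hepatocytes and less RNA per hepatocyte cannot be told apart.

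The 9 falls were of unequal size. Of the 10 genes, 7 were lower by at least 2-fold, against 5.34% of all genes, and 3 of these, Apoa4, Apoa5 and Apoc3, by at least 16-fold, against 1.06% of all genes. These counts rest on point estimates. The 95% intervals of Apoc3 and Apoa5 reach down to 10.7-fold and 10.6-fold, below that cut, and that of Apoa4 to 160-fold. The other 6 genes that fell lay between 1.63-fold for Apoa2 and 3.76-fold for Apoc2. Recentring all fold changes on the median of 27 other secreted hepatocyte proteins raised each value by 0.55 and left 4 of the 9 called, namely Apoa4, Apoa5, Apoc3 and Apoc2. When the Wald scores were read against a t distribution with 3 degrees of freedom, 0 of the 10 genes and 0 of all genes were called (7 of the 10, and 2513 of all, at an unadjusted p under 0.05).

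**Figure D1:**
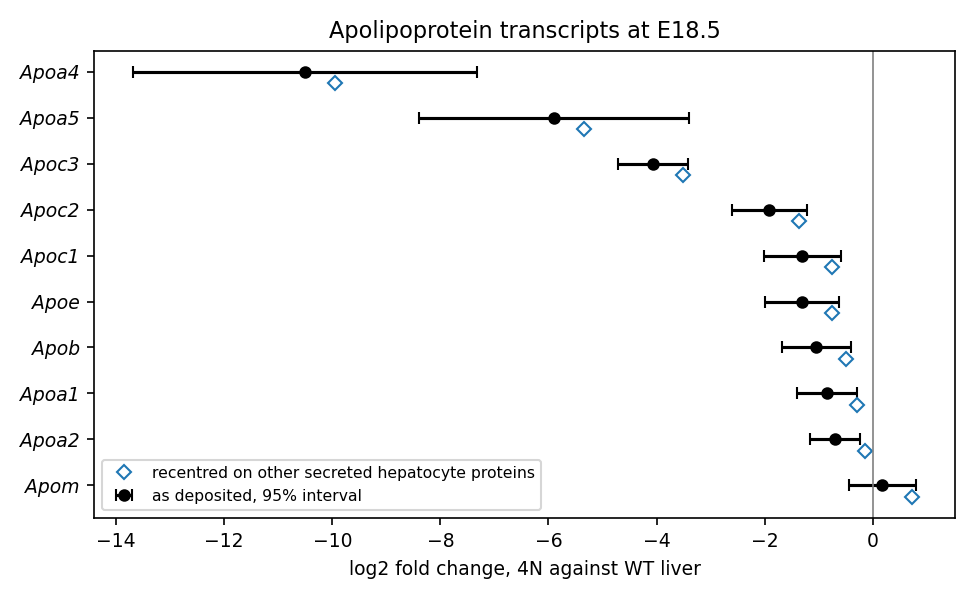
Log2 fold change of each apolipoprotein gene, 4N against WT liver (x axis), with the genes in order of their value. Black points and bars are the deposited values with 95% intervals, and open diamonds are the values after recentring on other secreted hepatocyte proteins. Only the interval of Apom spans 0, and Apoa4, Apoa5 and Apoc3 lie to the left of all other genes.

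Levels were compared between genes per kilobase of exon, on the scale of implied mean normalized counts. The length was that of all annotated exons of a gene merged, 2.14 kilobases for Apoe and 1.24 for Apoa1. Single transcripts can be shorter than this, so the order of the genes depends on the length used. In WT liver Apoa1 was highest at 521836 per kilobase, followed by Apoa2 at 338797 and Apoe at 337720, which differed by far less than the spread between libraries. Apob, whose exons span 13.9 kilobases, stood at 53932 and Apoc1 at 45194, again within that spread of each other. Apom followed at 24736, Apoa5 at 11576, Apoa4 at 8544 and Apoc3 at 6297, and Apoc2 was lowest at 515. In 4N liver Apoa1 was again highest at 291338, with Apoa2 at 207608 and Apoe at 136760. Apom, at 27918, and Apob, at 26115, were then level within the spread, and Apoc1 stood at 18280. The 4 lowest were Apoc3 at 376, Apoa5 at 194, Apoc2 at 137 and Apoa4 at 5.89. The gaps of Apoa5 to its neighbours in either order, and of Apoa4 to its neighbours Apoa5 and Apoc3 in WT, lay within the implied spread of these genes. The level of Apoc3 per kilobase was 1.21% of that of its neighbour Apoa1 in WT and 0.129% in 4N. How reads were assigned to genes is not stated, so the level of Apoc3 against other genes is uncertain.

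**Figure D2:**
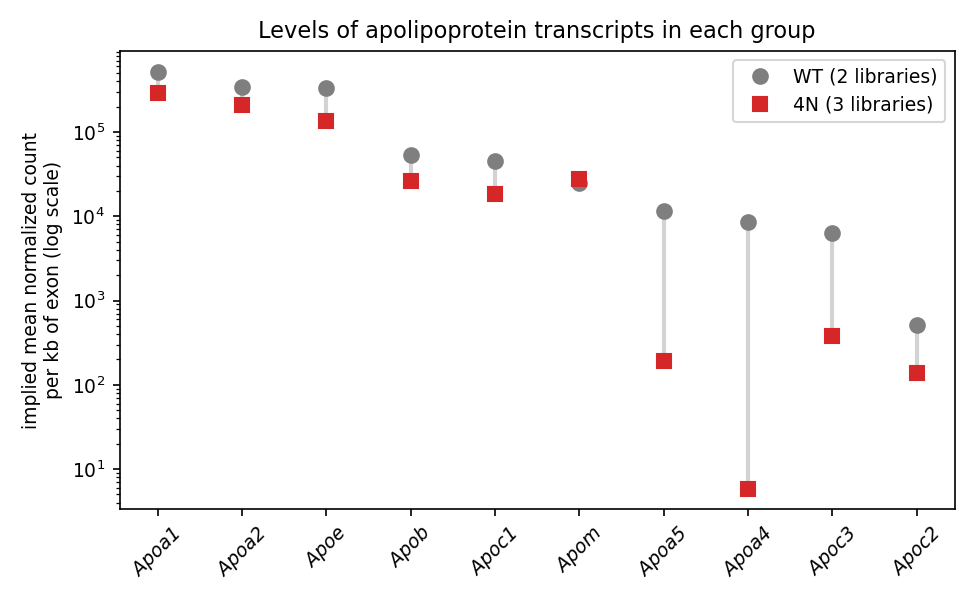
Implied mean normalized count per kilobase of exon (y axis, log scale) of each apolipoprotein gene in WT (grey circles, 2 libraries) and 4N liver (red squares, 3 libraries), ordered by the WT level. The grey line joining the groups is longest for Apoa4, from 8544 to 5.89, and Apom is the only gene with the 4N square above the WT circle.

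The structural genes of the particles fell by about 2-fold or less. Apob, the scaffold of very low density lipoprotein, had an implied mean of 751491 normalized counts in WT and 363891 in 4N. Its log2 fold change was -1.05 (SE 0.32, 95% interval -1.68 to -0.41, adjusted p = 0.012) per the authors' deposited table. Apoa1, the main protein of high density lipoprotein and the activator of cholesterol esterification by LCAT, had 644990 in WT and 360093 in 4N, also as implied means. The authors' deposited table gave it -0.84 (SE 0.28, 95% interval -1.40 to -0.28, adjusted p = 0.025). Apoa2, the second protein of that particle, went from an implied 181934 to 111485 normalized counts, the smallest fall of the 9. Its log2 fold change in the authors' deposited table was -0.71 (SE 0.24, 95% interval -1.17 to -0.24, adjusted p = 0.022). These 3 genes and Apoe held 95.8% of the counts of the 10 genes. Relative to the other secreted proteins, Apoa1 stood at -0.29 (adjusted p = 0.48), Apoa2 at -0.15 (adjusted p = 0.68) and Apob at -0.49 (adjusted p = 0.25), in a Wald test recentred from the authors' deposited table.

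Apoe and Apoc1, next to each other on chromosome 7, had nearly equal fold changes. Apoe, the receptor ligand of remnant particles, had an implied mean of 722045 normalized counts in WT and 292394 in 4N. The authors' deposited table gave it -1.30 (SE 0.35, 95% interval -1.99 to -0.62, adjusted p = 0.0024). Apoc1, a small protein that slows the uptake of remnants, went from an implied 33624 to 13600 normalized counts. Its log2 fold change was -1.31 (SE 0.36, 95% interval -2.02 to -0.59, adjusted p = 0.0038) per the authors' deposited table. Recentred on other secreted proteins, Apoe stood at -0.75 (adjusted p = 0.086) and Apoc1 at -0.75 (adjusted p = 0.10), by the same test recentred from the authors' deposited table. Apoe is also made by macrophages. Of 15 macrophage and Kupffer cell markers, 5 rose and 1 fell (median log2 fold change 0.50), among them the growth factor receptor Csf1r at 0.87 (SE 0.20) and the complement receptor Vsig4 at -1.87 (SE 0.39) per the authors' deposited table. Their implied counts summed to 95177 in 4N and 70801 in WT, and their part in the Apoe result was not tested.

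Apoc2, the obligate cofactor of lipoprotein lipase, had a log2 fold change close to that of Apoc4, which lies beside it. It had an implied 419 normalized counts in WT and 111 in 4N, and the authors' deposited table gave it -1.91 (SE 0.35, 95% interval -2.60 to -1.22, adjusted p = 2.0e-06). Apoc4 stood at -1.92 (SE 0.34, adjusted p = 4.0e-07, per the authors' deposited table), from an implied 13985 to 3684 normalized counts. In GENCODE M21 a protein-coding gene named Gm44805 spans both Apoc2 and Apoc4 on the same strand. Reads in the exons they share can be divided or dropped by the counting, which is not given in the sources used here, so the level of Apoc2 is uncertain.

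Apoc3, Apoa5 and Apoa4, the other genes of the chromosome 9 cluster, fell far more than Apoa1. Apoc3, the inhibitor of lipoprotein lipase and of remnant uptake, had an implied mean of 6385 normalized counts in WT and 381 in 4N. Its log2 fold change of -4.07 had a standard error of 0.33 (95% interval -4.71 to -3.42, adjusted p = 6.9e-33) per the authors' deposited table, the lowest adjusted p of the 10 genes. Apoa5, which raises the activity of lipoprotein lipase and is made almost only in liver, had an implied 29194 in WT and 489 in 4N. The authors' deposited table gave it -5.90 (SE 1.27, 95% interval -8.39 to -3.40, adjusted p = 7.6e-05). The lowest value belonged to Apoa4, a protein of triglyceride-rich particles and a satiety signal of the gut, which went from an implied 15508 normalized counts in WT to 10.7 in 4N. Its log2 fold change was -10.50 (SE 1.62, 95% interval -13.68 to -7.33, adjusted p = 4.7e-09) per the authors' deposited table.

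Within the cluster, the 95% interval of Apoa1 did not overlap those of Apoc3, Apoa4 or Apoa5, and that of Apoa4 did not overlap that of Apoc3. The interval of Apoa5 overlapped those of both Apoc3 and Apoa4. Differences between genes were not tested, because the table does not hold how their errors vary together. Genes flanking this cluster did not fall as far as Apoc3, Apoa4 or Apoa5. The fall of Zpr1 was larger than that of Apoa1 (-0.84), with overlapping 95% intervals. Sik3, before Apoa1, had 0.18 (SE 0.21, adjusted p = 0.66), Zpr1, a zinc finger gene just after Apoa5, fell by 1.11 (SE 0.25, adjusted p = 2.0e-04), and Bud13, next to it, had 0.22 (SE 0.28, adjusted p = 0.71), all per the authors' deposited table. Of 8 genes listed around this cluster 1, Zpr1, fell, and of 9 around the chromosome 7 cluster 1, Relb (-1.24, SE 0.38, adjusted p = 0.011, per the authors' deposited table), a subunit of NF-kappa B. Around Apoa2, Apob and Apom 1 of 10 fell, Nr1i3, a xenobiotic receptor gene near Apoa2 (-4.36, SE 0.41, adjusted p = 6.5e-24, per the authors' deposited table), and 0 rose at any of these sites. Gm47528, an unverified transcript that overlaps Apoa4 on the other strand and was singled out after its value was seen, was also called lower (adjusted p = 0.0014 in the authors' deposited table), with an implied 31.2 normalized counts in WT and a place at the fitting floor in 4N. The sources used here do not say whether counting used strand, so reads of Apoa4 and of Gm47528 cannot be told apart.

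**Figure D3:**
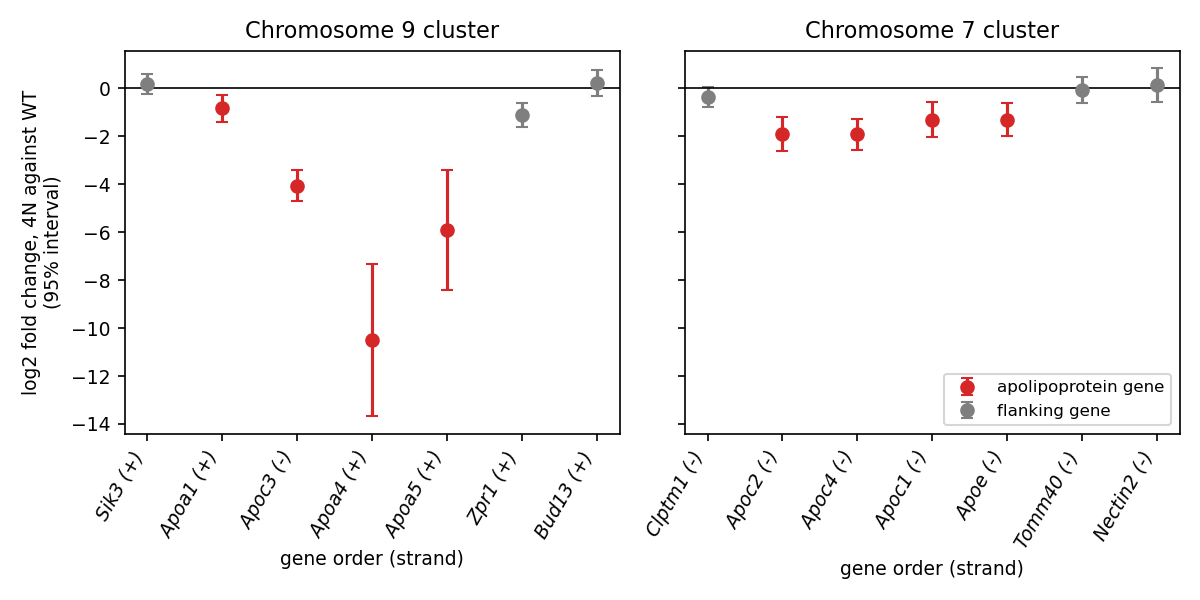
Log2 fold change, 4N against WT, with 95% intervals (y axis) for the genes of the chromosome 9 (left) and chromosome 7 (right) clusters in genomic order (x axis, strand in brackets). Apolipoprotein genes, including Apoc4, are red and flanking genes grey. On chromosome 9 the red points run from -0.84 for Apoa1 to -10.50 for Apoa4, whereas on chromosome 7 they lie between -1.92 and -1.30.

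The standard errors also imply a spread between libraries of a group. The coefficient of variation implied for Apoa4 was 122% and for Apoa5 96.6%, against a median of 18.1% and a 99th percentile of 32.7% over the 8656 abundant genes. Apoa4 and Apoa5 reached that mean through WT, and these values follow from the fitted standard errors rather than from measured differences between libraries. Of the abundant genes, 71 (0.82%) lay over 50% and 0 between 40% and 50%, so Apoa4 and Apoa5 sit beyond a gap. How the fit set the value of each gene is not known, so their values and those of other genes may not be comparable. The other 8 apolipoprotein genes lay between 17.9% for Apoa2 and 27.6% for Apoc1. Whether the falls of these genes rest on 1 library was not tested. Apoc3, lower by 16.7-fold (95% interval 10.7 to 26.1), had an implied coefficient of variation of 24.6%, which is likewise a fitted value.

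**Figure D4:**
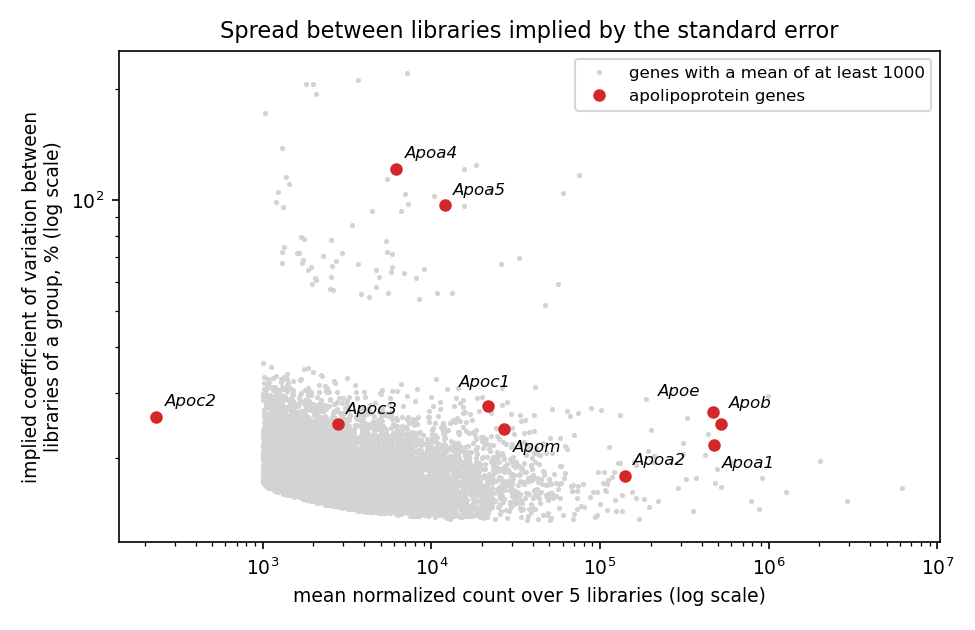
Coefficient of variation between libraries of a group implied by the standard error (y axis, %, log scale) against the mean normalized count (x axis, log scale). Grey points are the abundant genes (mean 1000 or more) and red points the 10 apolipoprotein genes. Apoa4 (122%) and Apoa5 (96.6%) lie above the other 8, which lie in or near the main cloud, Apoc2 to its left because its mean is 234.

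Apom, which carries sphingosine 1-phosphate on high density lipoprotein, was the exception. It had an implied mean of 25057 normalized counts in WT and 28281 in 4N. The authors' deposited table gave it 0.17 (SE 0.32, 95% interval -0.44 to 0.79, adjusted p = 0.81), an interval that holds falls and rises of modest size. Its value stayed above 0 under each centring, from 0.02 on housekeeping genes to 0.73 on other secreted proteins, and did not pass in any of them (adjusted p = 0.062 at the lowest, in a Wald test recentred from the authors' deposited table).

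Further apolipoproteins outside the 10 fell in part. Of 8 listed, 4 fell, 0 rose and 4 did not pass (median log2 fold change -1.54). Apon stood at -3.50 (SE 0.28, adjusted p = 2.0e-32) and Apof, an inhibitor of cholesteryl ester transfer, at -1.13 (SE 0.25, adjusted p = 8.1e-05), per the authors' deposited table. Clusterin (Clu), also called apolipoprotein J, was the other to fall beside Apoc4. Apoh, the phospholipid-binding beta-2-glycoprotein, had -0.07 (SE 0.18, adjusted p = 0.88) and did not pass in the authors' deposited table. The acute phase genes Saa1 and Saa2, near-identical copies, had means under 10 normalized counts.

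Genes that load and export APOB were called in part. Of 20 genes of APOB editing and very low density lipoprotein assembly, 4 fell, 1 rose and 15 did not pass (median -0.22). Over all genes 7.41% were called lower and 7.94% higher. Tm6sf2, which lipidates nascent particles, fell by 4.05 (SE 0.29, adjusted p = 4.5e-41) per the authors' deposited table, from an implied 1917 to 115 normalized counts. Apobec1, the enzyme that edits Apob RNA into its short form, fell by 1.22 (SE 0.29, adjusted p = 3.7e-04) and Sar1b, a coat protein of export vesicles, by 0.81 (SE 0.23, adjusted p = 0.0051), per the authors' deposited table. The sorting receptor gene Sort1 rose by 0.76 (SE 0.21, adjusted p = 0.0040) per the authors' deposited table. Mttp, which transfers lipid onto APOB, had -0.51 (SE 0.23, adjusted p = 0.12) per the authors' deposited table, a value that turned to 0.049 when recentred on other secreted proteins and to -0.66, called lower (adjusted p = 0.027), when recentred on housekeeping genes.

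Genes of high density lipoprotein formation moved both ways. Of 14, 5 fell, 4 rose and 5 did not pass (median 0.14). Lcat, the plasma enzyme that esterifies cholesterol on the particle, had -1.10 (SE 0.23, adjusted p = 3.7e-05) per the authors' deposited table. The paraoxonase gene Pon1, carried on the same particle, stood at -3.41 (SE 0.73, adjusted p = 7.4e-05), and hepatic lipase (Lipc) at -0.77 (SE 0.21, adjusted p = 0.0032), per the authors' deposited table. The lipid exporters Abca1 (0.87, SE 0.25, adjusted p = 0.0053) and Abcg1 (0.86, SE 0.22, adjusted p = 0.0013) rose, and so did the phospholipid transfer protein gene Pltp (0.81, SE 0.23, adjusted p = 0.0052), all per the authors' deposited table. Pcolce, better known for procollagen processing, rose by 1.31 (SE 0.27, adjusted p = 3.0e-05) per the authors' deposited table. Of 14 stellate and mesenchymal markers 4 rose and 2 fell (median 0.52), with summed implied counts of 91001 in 4N and 55051 in WT, and their part in the Pcolce result was not tested.

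Of 11 genes of lipolysis, 3 fell, 0 rose and 8 did not pass (median -0.60). Sel1l, which matures the lipase in the endoplasmic reticulum, fell by 0.86 (SE 0.20, adjusted p = 3.4e-04) per the authors' deposited table, and Lipc, named above, is also in this list. Receptors and their regulators were split, with 3 lower and 5 higher of 19 (median 0.03). The endocytic receptor gene Lrp2 rose by 2.15 (SE 0.73, adjusted p = 0.026), per the authors' deposited table. Its counts were low, an implied 29.9 in WT and 133 in 4N, with an implied coefficient of variation of 53.5%. Lrp2 is also among the yolk sac markers below. The remnant-binding proteoglycan gene Sdc1 (-2.17, SE 0.22, adjusted p = 6.3e-20), the asialoglycoprotein receptor gene Asgr2 (-1.53, SE 0.29, adjusted p = 3.9e-06) and Vldlr (-0.88, SE 0.30, adjusted p = 0.024) fell in the authors' deposited table.

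Of 34 transcription factors known to act on apolipoprotein genes, 6 fell, 4 rose and 24 did not pass (median -0.15). Hnf4a, a hepatocyte receptor that acts on most of these promoters, had -0.34 (SE 0.20, adjusted p = 0.29) per the authors' deposited table, and 0.22 when recentred on other secreted proteins. Creb3l3, a fasting-induced factor that acts on Apoa4, Apoa5 and Apoc2, fell by 0.90 (SE 0.26, adjusted p = 0.0059) per the authors' deposited table. The corepressor gene Nr0b2 (-4.08, SE 0.42, adjusted p = 2.9e-20), the clock repressor gene Nr1d1 (-1.54, SE 0.36, adjusted p = 3.4e-04) and the glucose-responsive Mlxipl (-1.11, SE 0.26, adjusted p = 3.9e-04) also fell in the authors' deposited table. Onecut1 (1.42, SE 0.31, adjusted p = 1.1e-04) and the sterol response genes Srebf2 (0.83, SE 0.22, adjusted p = 0.0016) and Srebf1 (1.01, SE 0.28, adjusted p = 0.0030) rose in the authors' deposited table.

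**Figure D5:**
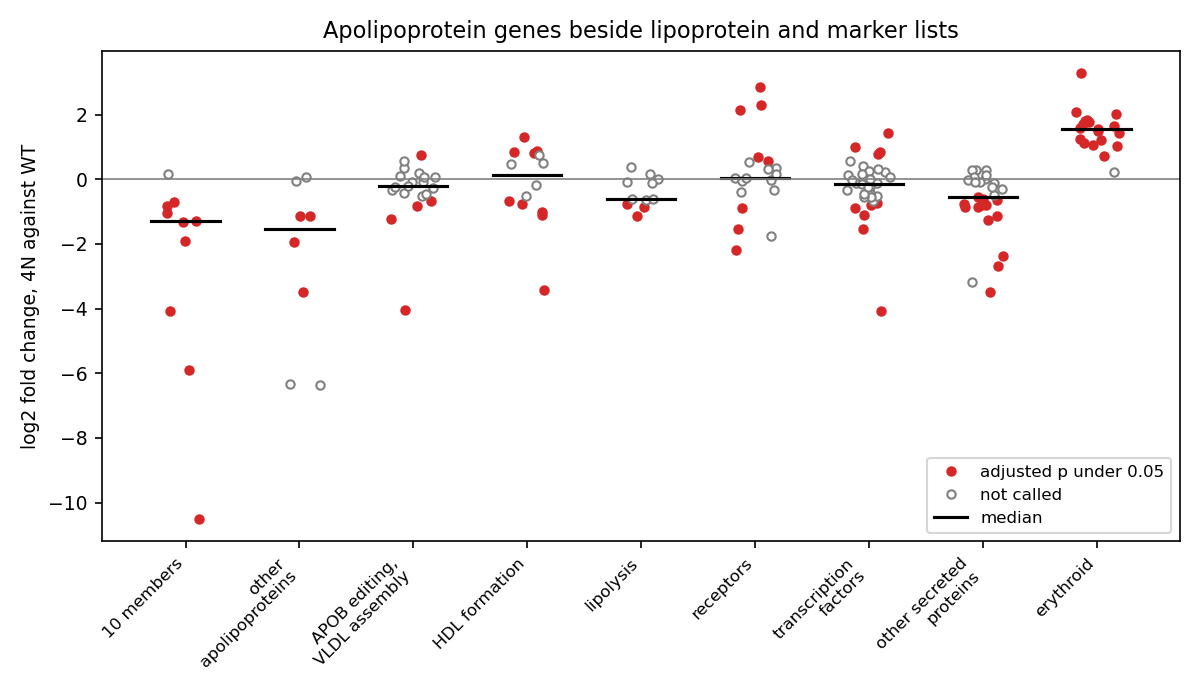
Log2 fold change, 4N against WT (y axis), of each gene in the lists named on the x axis. Filled red points passed at an adjusted p under 0.05, open points did not, and black lines are medians. The median of the other apolipoproteins is pulled down by Saa1 and Saa2, which have very low counts. The medians of the 10 apolipoprotein genes (-1.31) and of the other apolipoproteins (-1.54) lie below those of the assembly (-0.22), receptor (0.03) and transcription factor (-0.15) lists, and the erythroid median (1.55) lies above all.

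Markers of other cells moved in the same comparison. Of 19 erythroid markers 18 rose and 0 fell (median 1.55), among them the globin gene Hba-a2 at 3.29 (SE 0.34) per the authors' deposited table, and their implied counts summed to 3648510 in 4N and 1120400 in WT. Of the 27 other secreted hepatocyte proteins 13 fell and 0 rose (median -0.55), among them hemopexin (Hpx) at -2.67 (SE 0.20) per the authors' deposited table, and their sums were 13890500 and 14917000. Of 10 enterocyte markers 2 fell and 1 rose (median -0.22). The intestinal fatty acid-binding gene Fabp2 stood at -3.05 (SE 0.32) and the brush border gene Vil1 at 2.11 (SE 0.41) per the authors' deposited table. The enterocyte sums were 3717 in 4N and 6966 in WT. Of these Fabp2 held 369 and 3054, and the keratin gene Krt20 2045 and 2086. The defining brush border enzymes Alpi and Mep1a had means under 10 normalized counts. Of 9 markers of visceral yolk sac endoderm 3 rose and 0 fell (median 1.01), among them Cthrc1 at 3.28 (SE 1.11) per the authors' deposited table, with sums of 17886 and 19681. The secreted protein gene Spp2 held 16472 and 19063 of these, and the other 8 genes summed to 1413 in 4N and 617 in WT. The part of these markers in the apolipoprotein results was not tested.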

How the data were processed

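The authors deposited 1 comparison table of 3 4N and 2 WT livers. Per the file headers, it holds the mean signal of each gene (the mean normalized count over all libraries), the log2 fold change with its standard error, a Wald score, and p-values with adjusted p-values, all made by the authors. Per the file headers, its columns carry the names DESeq2 gives. GRCm39 is the build named, per the submitters' processing notes; which aligner and counter were used, and whether by strand, is not given in the sources used here. Checked on the values, all 23022 p-values and adjusted p-values were within 2% of the 2-sided normal tail of the score and of its Benjamini-Hochberg adjustment over all genes, with 0 missing values.

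Implied group means were solved from the mean over 5 libraries and the fold change. The implied coefficient of variation was solved from the standard error, taking equal library sizes and 1 dispersion per gene. The 95% intervals are normal ones from the standard errors. Exon lengths and gene order came from GENCODE M21 (build GRCm38) and promoters from RefSeq (GRCm38.p6). These describe another build and were used for names, order, lengths and sequences only.

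The genes, 9 pathway lists and 10 marker lists were chosen with earlier results of these data known. Named genes were the 10 members, in each pathway list the called genes with the smallest adjusted p (up to 3 per direction), 1 per direction in marker lists, and Alb, Afp, Hhex, Mttp, Apobec1, Lcat, Abca1, Hnf4a and Creb3l3. Some genes that this rule names are not reported here. Lists are given by counts and medians, without a list test. The lists not described in the report gave 2 lower and 0 higher of 12 endothelial markers (median -0.01), 1 and 0 of 2 adipocyte (-1.62), 1 and 1 of 8 neural and glial (-0.48) and 1 and 2 of 15 housekeeping genes (0.15). Alternatives were an adjusted p under 0.01, a Wald test against a 1.5-fold change, a t reference with 3 degrees of freedom, a minimum mean of 50, 3 recentrings and the Benjamini-Yekutieli adjustment. The functions were tested on simulated data. Versions were scipy 1.17.1, pandas 2.3.3, numpy 2.4.6 and matplotlib 3.10.9 under Python 3.11.15.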

Additional observations from a re-analysis of the deposited data

How the results depend on the processing

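Of 80 repeats of the 10 apolipoprotein results under 8 alternatives, 55 kept their direction and side of the threshold, 25 kept the direction and lost the call, and 0 reversed. Apart from the 3 recentrings, the alternatives left the fold changes as deposited. The largest recentring shift was 0.55, and the smallest fall called was that of Apoa2, at -0.71. A called gene could thus not change direction under any of the alternatives. Genes called lower numbered 9 with a minimum mean of 50 and after recentring on abundant genes (mean 10000 or more) or housekeeping genes, 6 at an adjusted p under 0.01 and 6 under Benjamini-Yekutieli, 4 in the test against a 1.5-fold change, 4 after recentring on other secreted proteins and 0 under the t reference. The last recentring moved the median of the 10 genes to -0.75. Over all genes it gave 875 lower and 6464 higher calls (3.80% and 28.1%), and recentring on housekeeping genes, a shift of 0.15, gave 2337 and 1373, against 1705 and 1828. Percentages lower and higher were 2.93% and 2.67% in the 1.5-fold test, 4.50% and 4.38% under Benjamini-Yekutieli and 0% and 0% under the t reference. They were 5.06% and 5.26% at an adjusted p under 0.01, and 10.7% and 11.4% with a minimum mean of 50. Recentring gave 8.34% and 7.22% on abundant genes and 10.2% and 5.96% on housekeeping genes.

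In the 9 pathway lists together, whose sizes are given above, 27 genes were lower and 14 higher, counting Lipc once. Over all genes the shares were 7.41% and 7.94%. The counts were 8 and 1 in the 1.5-fold test, 9 and 42 after recentring on other secreted proteins and 0 and 0 under the t reference. They were 22 and 9 at an adjusted p under 0.01 and 20 and 7 under Benjamini-Yekutieli. The uncalled values that changed sign were Alb at -0.047 when recentred on abundant genes and -0.15 on housekeeping genes, and Hnf4a at 0.22 and Mttp at 0.049 on other secreted proteins. Calls were gained by Hhex (1.11, adjusted p = 0.0037) and Alb (0.56, adjusted p = 0.035) on other secreted proteins and by Mttp (-0.66, adjusted p = 0.027) on housekeeping genes, in the recentred Wald test. Recentring shifts every gene by its constant, and the stricter tests act by construction; beyond this the cause was not tested. Leaving out libraries was not run, as it needs values of single libraries. No paired analysis was possible because the groups share no replicate number and the result is the authors' own table.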

Other observations

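Genes of the apolipoprotein L family, singled out after their values were seen, moved both ways. They are named for their sequence likeness to a human plasma protein and mostly act inside cells. Of 8 listed, 3 rose, 3 fell and 2 did not pass. Apol11b rose by 3.64 (SE 0.36, adjusted p = 3.0e-21) and Apol8 by 1.05 (SE 0.23, adjusted p = 7.7e-05) per the authors' deposited table, from an implied 51.2 to 636 and from 3077 to 6391 normalized counts. Apol11a, with a mean of 22.7 normalized counts, was also called higher. Apol7a fell by 1.41 (SE 0.27, adjusted p = 5.2e-06) per the authors' deposited table, from an implied 5591 to 2106. The close copies Apol9a and Apol9b, both lower, had means of 37.2 and 105.6, and reads they share make both values uncertain. Apoo and Apool, which encode mitochondrial proteins of cristae despite their names, had -0.38 (SE 0.28, adjusted p = 0.42) and -0.29 (SE 0.26, adjusted p = 0.54) per the authors' deposited table.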
